A study of Schizosaccharomyces pombe with 8 samples.

Results

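Total RNA of slr1- cells was set against total RNA of wild-type (WT) cells of the fission yeast Schizosaccharomyces pombe, gene by gene. The comparison was chosen by its sample labels and rests on 4 of the 8 libraries of the series, 2 of slr1- and 2 of WT, and on all 527 genes listed in the count table. WT is strain yAS99, and slr1- is labelled a knockout (KO) of the gene for Slr1p. The labels do not say how many independent deletion clones were used or whether slr1- was derived from yAS99. Both strains grew with shaking in YES, a rich yeast extract medium, at 32°C. All libraries, those of WT included, came from cells treated with 100 µg/mL cycloheximide, a drug that stalls ribosomes on mRNA, so no library shows either strain without the drug. Ribosomal RNA was removed before stranded libraries were read as single reads of 50 bases. The other 4 libraries hold RNA from polysomes of the same strains.

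Slr1p belongs to the La-related RNA-binding proteins and is the counterpart of LARP1 in this yeast. In mammalian cells LARP1 binds the start of mRNAs that open with a run of pyrimidines, most of which encode ribosomal proteins and translation factors, and it affects both their stability and their translation. Fission yeast carries many ribosomal protein (RP) genes as several copies at separate loci, and a short promoter element called HomolD stands in many of them where other genes have a TATA box.

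The slr1 gene itself was not analysed here, so the strain labels were not checked against its transcript. The 4 libraries hold between 792679 and 1110838 counts over the listed genes, which is the total of a partial table and not the depth of a library. The lowest count in any of the 4 was 111. Counting error weighs most in genes of low count, and it was not separated from the spread between replicates. Over genes, log2 ratios of the replicates had an SD of 0.29 in WT and 0.28 in slr1-. The labels call the replicates biological, with 2 a group. The spread behind the p-values was estimated from all 8 libraries in 1 fit, those of polysome RNA included. Between replicates of polysome RNA the SD was smaller, 0.16 in WT and 0.25 in slr1-. The p-values thus measure the pooled spread of these libraries. Every listed gene carries a change type, "both" (250 genes) or "translational_only" (277), and whether the genes were selected by it is not stated. The shares called below hold for this list and not for the whole genome. Counts were scaled between libraries by TMM factors, which assume that most listed genes do not change, an assumption that a list selected for change may not meet. The values are therefore amounts relative to the other listed mRNAs, and a loss of all mRNA per cell would not be seen in them.

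The slr1- cells differed from WT by broad, mostly modest changes of the listed mRNAs. With TMM factors from all listed genes, RP mRNAs were mostly higher and most other mRNAs that changed were lower. The edgeR quasi-likelihood test called 281 of the 527 genes (53.3%) at a Benjamini-Hochberg adjusted p under 0.05. Of these 104 (19.7%) were higher and 177 (33.6%) were lower in slr1-. The median of the raised genes was a log2 fold change of 0.52 (1.43-fold), and that of the lowered genes was -0.70 (1.62-fold lower). The whole range ran from -1.48 to 1.40, with a median of -0.19 and quartiles at -0.55 and 0.23. The median standard error (SE) of a log2 fold change was 0.15. The smallest change that passed was 0.25 and the largest that did not was 0.72. In 404 genes (76.7%) the slr1- libraries lay on one side of both WT libraries, among them all 281 that passed. At the threshold, rps402 (0.30, adjusted p = 0.0496) and rad24 (0.25, 0.0496) lay just inside, and srs1 (-0.36, 0.0503) and ost2 (-0.56, 0.0506) just outside.

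The number of calls rested much on slr1- replicate 1. The 177 lowered genes had a median log2 ratio to the WT mean of -0.86 in replicate 1 and of -0.54 in replicate 2, and replicate 1 was the lower one in 161 of them. In the 104 raised genes the medians were 0.58 and 0.44. Without slr1- replicate 1 127 genes passed, 51 higher and 76 lower. Without slr1- replicate 2 the count was 288. It was 236 without WT replicate 1 and 210 without WT replicate 2.

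The balance of higher to lower genes also depended on the scaling. TMM factors taken from the 401 genes other than RP genes, called RP-free scaling below, raised the overall median by 0.34, to 0.15, and gave 182 genes higher and 72 lower. Among these 401 genes 75 were then higher and 71 lower (median -0.023), so most of those that changed were no longer lower. Library sizes alone moved the overall median by -0.18, to -0.37, and gave 60 higher and 260 lower. A fit of the 4 total RNA libraries alone, with factors and spread from these and 2 residual degrees of freedom in place of 4, moved it up by 0.13 and gave 102 higher and 126 lower. Among the 102 genes that were both named by rule and called, library sizes alone ended 15 calls, all of rises (log2 fold change then 0.072 to 0.73), those of rpp202, rps2201, rps21, rpl29, leu1, ilv5, act1 and tpx1 among them. RP-free scaling ended 19, all of falls (then -0.85 to -0.016), among them those of the genes rpa43, tif471, rpe1, pgr1, SPAC27E2.11c and SPMIT.08. The named genes were checked in 12 other settings, of which genes with a mean under 500 counts entered 11, and statements on all other settings refer to these. Leaving out a library also leaves its group without a replicate, so a call can be lost though the change is no smaller. The rpp202 call, for example, was lost without slr1- replicate 2 at a log2 fold change of 1.21, against 0.92 with all libraries. Directions below hold relative to the other listed genes, and classes whose median changed sign with the scaling are named where they are described.

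**Figure D1:**
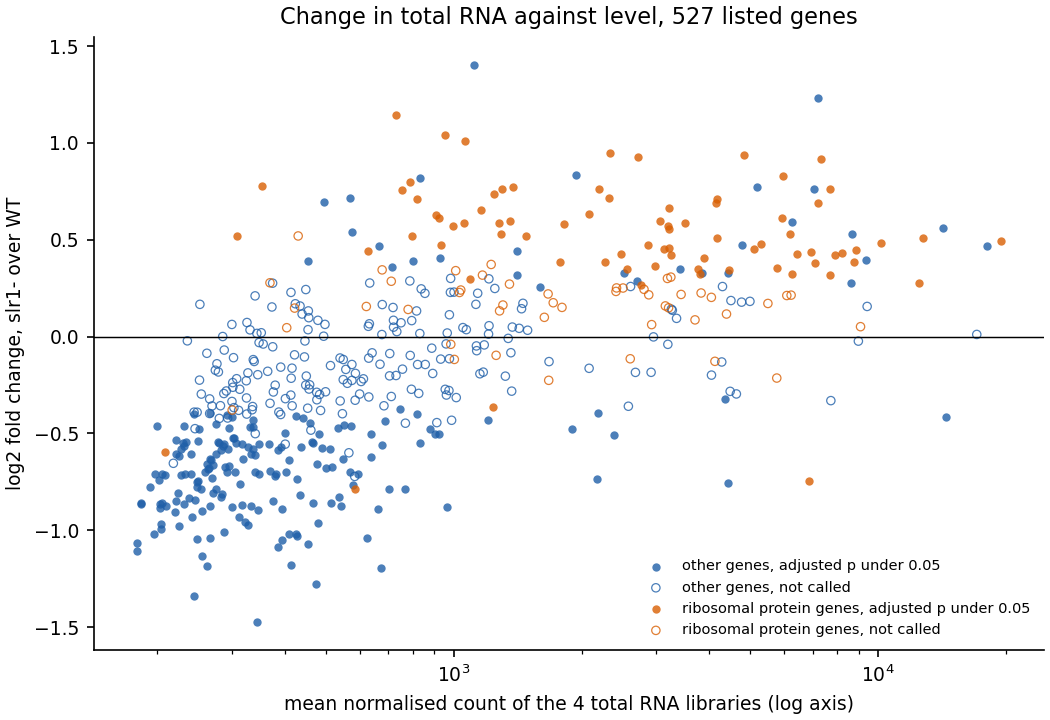
Log2 fold change of total RNA in slr1- over WT (vertical axis) against the mean normalised count of the 4 total RNA libraries (horizontal log axis) for the 527 listed genes. Orange points are the 126 RP genes and blue points the other 401, and filled points passed an adjusted p of 0.05. RP genes lie mostly above 0, with few of them at low counts, and the other genes of low count lie mostly below 0.

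The RP genes were the largest group that rose, and several carry a HomolD box before their annotated start. HomolD is shown because it is a promoter element common among these genes, and because raised and lowered RP genes can be set beside each other by it. Each line gives 24 bases on the strand of the gene, read from the RefSeq reference ASM294v3 and not from the reads. Capitals mark the 8 letters CAGTCACA or their reverse complement TGTGACTG.
rpl2101, raised (chrII:2503819-2503842, minus strand, box from 54 bases before the start): tctagttgTGTGACTGtttttttg
rpl1701, raised (chrII:1734050-1734073, minus strand, 56 bases before): gtccaaacCAGTCACAattgttca
rpl3702, raised (chrIII:1847910-1847933, minus strand, 51 bases before): ctgagaaaTGTGACTGtttttttg
rps1201, raised (chrIII:553105-553128, plus strand, 61 bases before): tatttattTGTGACTGttttttgg
rps2201, raised (chrI:1162699-1162722, minus strand, 56 bases before): cgtagacaTGTGACTGcttttttt
rps2202, lowered (chrI:1512425-1512448, minus strand, 50 bases before): ggtttttaTGTGACTGctcctgta
rpl39, lowered (chrIII:1640963-1640986, plus strand, 45 bases before): aaaaagagCAGTCACAttcgcttt
The box stood within 250 bases before the start, on either strand, in 81 of 126 RP genes (64.3%), against 134 of 5112 protein-coding genes of the reference (2.62%). It was found in 48 of the 75 raised RP genes (64.0%), in 31 of the 47 that did not pass (66.0%) and in 2 of the 4 that fell. RP genes with the box had a median log2 fold change of 0.40, and those without it 0.35. The letters thus mark RP genes as a group in these windows, and RP genes with and without them differed little in median. Runs of at least 8 C or T within 20 bases of the annotated start were sought on the gene's strand. They were found in 21 of 126 RP genes (16.7%), the same share as in the reference genes (16.7%). In 389 other listed genes the share was 26.0%. Of the 21 RP genes with a run 14 were raised (66.7%), and of the 105 without it 61 (58.1%). The median log2 fold change was 0.38 in both. Annotated starts may differ from the starts in these cells.

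Rises were called in 75 of 126 RP genes (59.5%) and falls in 4, and 47 did not pass. Over all listed genes 19.7% rose. The median log2 fold change was 0.38, and that of the other 401 genes was -0.36, with 29 higher and 173 lower. The counts were alike in both subunits: 45 of 74 large subunit genes rose and 2 fell (median 0.39), and 30 of 52 small subunit genes rose and 2 fell (median 0.36). The RP share of the listed counts was 45.5% and 45.3% in the WT libraries, and it was 54.3% and 50.3% in the slr1- libraries. Without slr1- replicate 1 34 RP genes were higher (22 of the large and 12 of the small subunit) and 2 lower, with library sizes alone 48 and 8, and with RP-free scaling 107 and 1. The RP median stayed above that of the other genes by 0.51 to 0.90 in every alternative, a difference that a change of scaling alone can hardly move.

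Among single RP genes, rpl2101, which encodes the large subunit protein eL21, had 502 and 409 normalised counts in WT and 1127 and 887 in slr1- (log2 1.15 ± 0.16 SE, n = 2 libraries per group, adjusted p = 0.0011). The small subunit gene rps1602 (protein uS9) had 664 and 581 in WT and 1364 and 1197 in slr1- (1.04 ± 0.15). In both genes the lower slr1- library was well above the higher WT library. The eL37 gene rpl3702 went from 1722 and 1464 to 3395 and 2744 (0.95 ± 0.14). The eS12 gene rps1201 went from 3424 and 3200 to 6892 and 5809 (0.94 ± 0.12), and the L36 gene rpl3602 from 1971 and 1771 to 3705 and 3409 (0.93 ± 0.11). In all of these genes slr1- replicate 1 was the higher one. For rpl1701, with 781 and 629 in WT and 1711 and 1128 in slr1- (1.01 ± 0.21), significance was lost without slr1- replicate 1 (0.68, adjusted p = 0.0513). The stalk protein gene rpp202 had 3610 and 6556 in WT and 11751 and 7435 in slr1- (0.92 ± 0.34, adjusted p = 0.041). Its libraries spread most among these genes, and its call was lost without slr1- replicate 1 (0.55) or replicate 2 (1.21) and without WT replicate 1 (0.55).

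Falls were called in rps2202, rpl39, rpl3402 and rps2601. For rps2202, a gene of the small subunit protein uS8, WT had 725 and 757 counts and slr1- 366 and 492 (-0.79 ± 0.17, adjusted p = 0.0048). Of these 4 genes it alone kept its call in all other settings. In WT rpl39 had 6537 and 10637 counts, against 5292 and 4952 in slr1- (-0.75 ± 0.25), so the replicates of WT differed more than the lower WT library did from slr1-. Its call was lost without slr1- replicate 1 (-0.79) or replicate 2 (-0.70) and without WT replicate 2 (-0.35). The call of rpl3402 (-0.59 ± 0.19) was lost without slr1- replicate 1 (-0.38) or WT replicate 1 (-0.46), and rps2601 (-0.36 ± 0.11) lost its own without slr1- replicate 2 (-0.29) or WT replicate 2 (-0.32). None of these 3 passed with RP-free scaling.

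Copies of 1 ribosomal protein did not always change alike. Genes were taken as copies of 1 protein by their symbols alone. In 49 such groups of at least 2 listed genes (99 genes), all copies rose in 17, some in 21 and none in 11. The 17 include rpl801 with rpl8 (0.52 and 0.42), which were not checked to encode 1 protein. The median difference in log2 fold change between the highest and the lowest copy was 0.30, and in 10 groups it exceeded 0.5. Copies of uS8 (rps22) differed most, by 1.19. The abundant copy rps2201 rose from 3499 and 3207 to 4588 and 4283 (0.40 ± 0.11), while rps2202 fell as given above. The rps2201 call was lost without slr1- replicate 1 (0.35) and without WT replicate 2 (0.34). Copies of eS26 were called in opposite directions too, with rps2602 higher (5203 and 4933 to 7980 and 6652, 0.53 ± 0.12) and rps2601 lower (1350 and 1432 to 1139 and 1027). The rps2602 call was lost without slr1- replicate 1 (0.39).

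The next widest pairs had 1 copy raised and the other not past the test, or 1 lowered. In the rpl1 pair rpl101 rose from 3315 and 3001 to 5484 and 4859 (0.71 ± 0.11), and rpl102 had 322 and 357 in WT and 255 and 268 in slr1- (-0.38 ± 0.16, adjusted p = 0.070). In the eL21 pair rpl2101 rose, and rpl2102 had 1562 and 1593 in WT and 1762 and 1618 in slr1- (0.10 ± 0.14, -0.083 with library sizes alone). In the rps30 pair rps3002 rose from 273 and 248 to 494 and 399 (0.78 ± 0.18), and rps3001 had 2561 and 2853 in WT and 2707 and 2294 in slr1- (-0.11 ± 0.17, 0.23 with RP-free scaling). In the eL34 pair the lowered copy was rpl3402, and rpl3401 had 3530 and 3523 in WT and 4263 and 3982 in slr1- (0.23 ± 0.10, adjusted p = 0.084). The copy with more counts in WT had the higher change in 20 of the 49 groups. Copies with near-identical sequence share reads of 50 bases, and how the estimated counts split them is not known here, so values of single copies are uncertain.

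**Figure D2:**
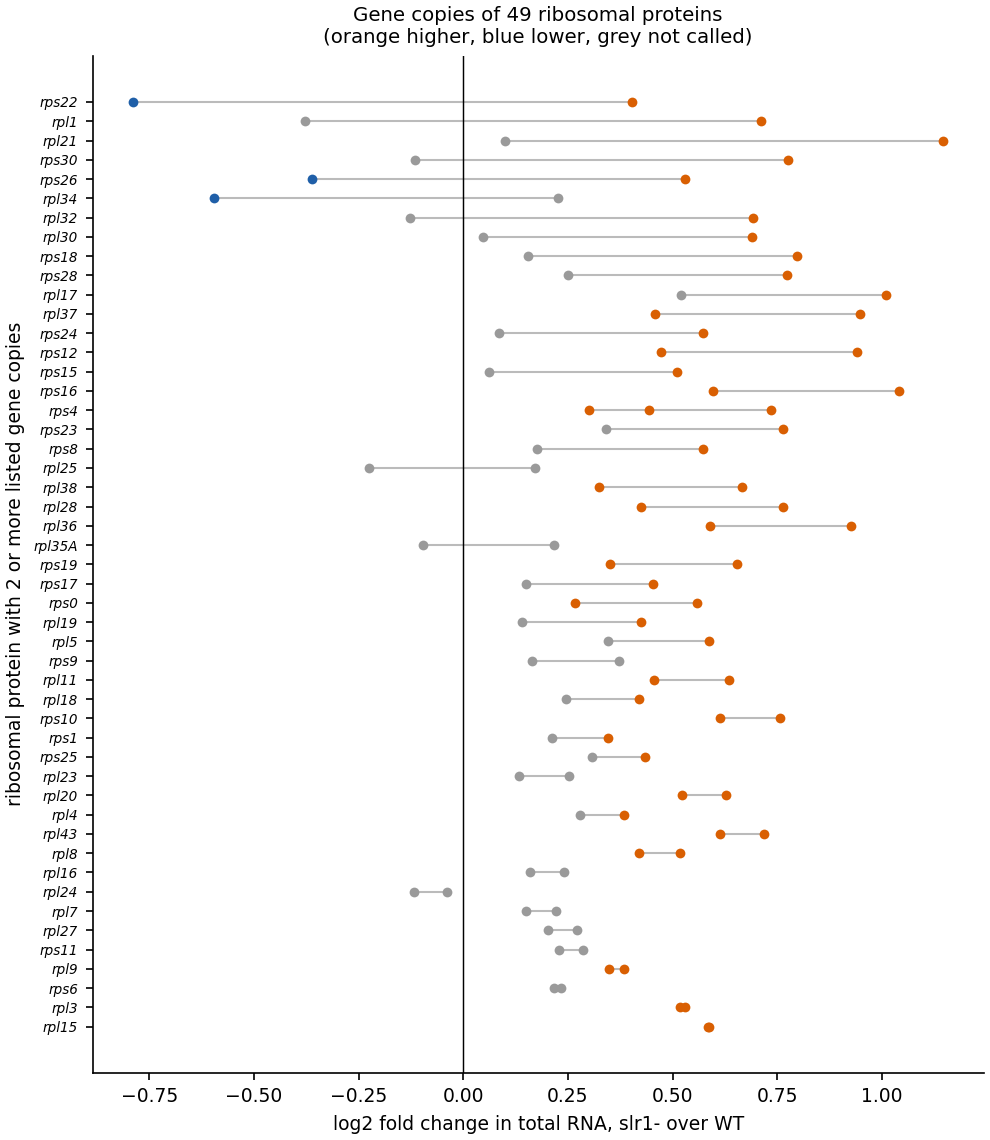
Log2 fold change of total RNA in slr1- over WT for 49 groups of RP genes, ordered by the difference between copies. Genes were taken as copies of 1 protein by symbol alone. Orange copies rose, blue copies fell and grey copies did not pass, and the widest line (rps22, 1.19) joins a raised and a lowered copy.

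Apart from RP genes, the largest rises were in genes of redox and carbon metabolism and in fusions of ubiquitin with a ribosomal protein. The peroxiredoxin-like chaperone gene pmp20 had 688 and 532 counts in WT and 1585 and 1646 in slr1- (1.40 ± 0.16, adjusted p = 9.5e-04), a 2.65-fold rise and the largest of all listed genes. The phosphoglycerate kinase gene pgk1, of glycolysis, went from 5007 and 3609 to 10209 and 10031 (1.23 ± 0.16, 2.35-fold). In both genes the slr1- replicates lay close together and far from WT. The fusion genes ubi3 (1438 and 1354 to 2647 and 2330, 0.83 ± 0.11) and ubi5 (636 and 567 to 1104 and 1021, 0.82 ± 0.14) encode ubiquitin joined to the small subunit protein S31, so their products add to the ribosome as well. Of all genes 25 (4.74%) passed with a change of at least 2-fold. Rises made up 5 of them (0.949%), pmp20, pgk1, rpl2101, rps1602 and rpl1701.

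The largest falls came from mRNAs of diverse function, and at least 2-fold falls that passed were found in 20 genes (3.8%). None of the 20 was an RP gene, and none had a mean level of at least 1000 normalised counts. The uncharacterised gene SPCC24B10.18 had 357 and 657 counts in WT and 182 and 183 in slr1- (-1.48 ± 0.26, 2.78-fold lower). The replicates of WT differed widely there, and both lay above slr1-. The gene rpc10, a subunit of the nuclear RNA polymerases, went from 475 and 670 to 225 and 281 (-1.18 ± 0.19), and the cell wall glucosidase gene exg1 from 326 and 374 to 134 and 186 (-1.13 ± 0.20). The gene ser1 of serine synthesis went from 287 and 202 to 99.1 and 128 (-1.11 ± 0.22), the CTP synthase gene cts1 from 569 and 476 to 246 and 246 (-1.09 ± 0.15), and the initiation factor eIF3b gene tif302 from 626 and 598 to 263 and 321 (-1.07 ± 0.14). These 6 genes kept their calls in all other settings.

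Other large falls did not keep their call in all other settings. The plasma membrane proton pump gene pma1 had 879 and 462 counts in WT and 229 and 324 in slr1- (-1.28 ± 0.27), and its call was lost without slr1- replicate 1 (-1.05, adjusted p = 0.077). The gene sla1, for the La protein that binds the ends of new RNA polymerase III transcripts, had 308 and 419 in WT and 133 and 188 in slr1- (-1.18 ± 0.25), and was lost in the same way (-0.95, 0.061). So was cut6, for acetyl-CoA carboxylase (-1.07 ± 0.29, then -0.78), which was also lost without WT replicate 1 (-0.74). The snoRNP gene gar1, with 616 and 448 in WT and 320 and 193 in slr1- (-1.05 ± 0.24), kept its call with every library left out and lost it with RP-free scaling (-0.69).

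**Figure D3:**
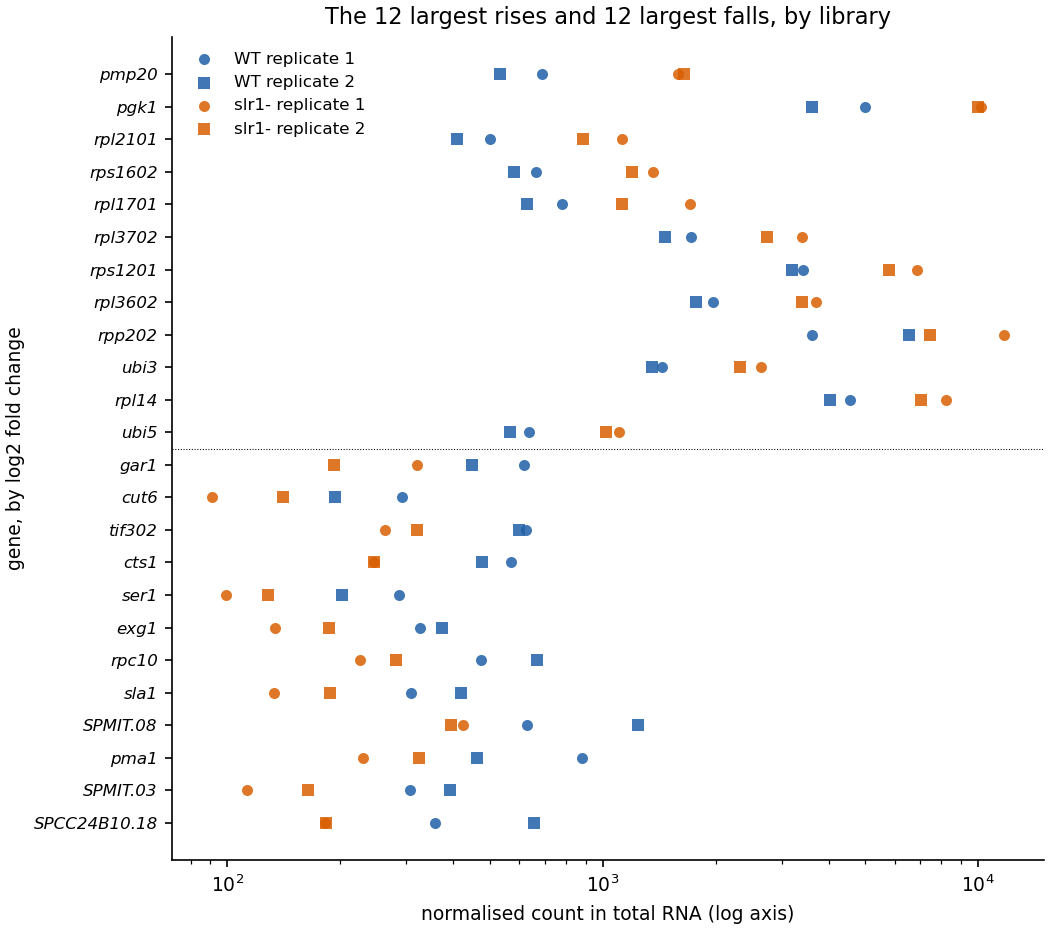
Normalised counts in each of the 4 total RNA libraries (horizontal log axis) for the 12 genes with the largest rise and the 12 with the largest fall among those that passed without overlap, ordered by log2 fold change. Circles are replicate 1 and squares replicate 2, with WT in blue and slr1- in orange, and in each gene both slr1- points lie on one side of both WT points.

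Levels per kb of transcript place these changes among the most abundant listed mRNAs. SPAC27E2.11c had the highest WT level, 46840 normalised counts per kb, and 35158 in slr1- (-0.41 ± 0.12). Its call was lost without slr1- replicate 1 (-0.32) or WT replicate 1 (-0.38). The next were rps21 with 40007 in WT and 56353 in slr1- (0.49 ± 0.15), rpl39 with 27002 and 16107, rpl31 with 23537 and 33524 (0.51 ± 0.10), and rpl29 with 22737 and 30955 (0.45 ± 0.15). Of the 5, rpl31 kept its call in all other settings. The rps21 call was lost without slr1- replicate 1 (0.42) or WT replicate 2 (0.39). That of rpl29 was lost without slr1- replicate 1 (0.32), WT replicate 1 (0.51) or WT replicate 2 (0.39).

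Of the 401 genes other than RP genes 43.1% fell and 7.23% rose, and the shares of the classes below stand beside these. These shares varied with level. Below 500 normalised counts 136 of 227 of these genes fell and 2 rose, and of the 75 with at least 1000 counts 8 fell and 20 rose. The classes were not compared with genes of like level, so a share apart from that of the 401 genes need not be particular to a class.

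Genes that make and modify ribosomes were lower where they changed. Of 17 ribosome biogenesis genes 14 fell (82.4%) and none rose (median -0.70). The nucleolin gene gar2 fell from 603 and 535 to 297 and 264 (-1.02 ± 0.15), and the RNA helicase gene dbp2 from 421 and 431 to 211 and 228 (-0.96 ± 0.13). The count was 8 of 17 without slr1- replicate 1 and 6 of 17 with RP-free scaling, and no gene of the class rose in either. Of 4 genes of RNA polymerases I and III 3 fell (median -0.62), rpc10 with the polymerase I genes rpa2 (-0.70 ± 0.16) and rpa43 (-0.54 ± 0.19). The rpa43 call was lost without either slr1- library (-0.52 and -0.56) and without WT replicate 2 (-0.32).

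Of 22 initiation factor genes 11 fell (50.0%) and none rose (median -0.36, -0.025 with RP-free scaling). The count was 6 without slr1- replicate 1, and with RP-free scaling 6 fell and 2 rose. Besides tif302 these included int6, an eIF3 subunit gene, which fell from 627 and 696 to 336 and 394 (-0.86 ± 0.14). The eIF4G gene tif471 had 269 and 259 in WT and 103 and 189 in slr1- (-0.86 ± 0.25), and its call was lost without slr1- replicate 1 (-0.48) or WT replicate 1 (-0.83). Of 9 elongation and termination genes 3 fell (33.3%, under the share of the 401 genes) and 1 rose, with a median of -0.18 that turned to 0.16 with RP-free scaling, when 4 rose and 3 fell. The lowered 3 act at stop codons or in recycling of ribosomes, namely rli1 (-0.86 ± 0.19), erf1 (-0.71 ± 0.15) and sup35 (-0.70 ± 0.16). The raised gene was tef5, for an exchange factor of elongation (0.47 ± 0.10). Of 18 aminoacyl-tRNA synthetase genes and their cofactor 9 fell (50.0%) and none rose (median -0.50). The arginine enzyme gene mrs1 fell from 392 and 323 to 144 and 204 (-1.04 ± 0.19), and the aspartate enzyme gene drs1 from 426 and 343 to 161 and 222 (-1.01 ± 0.18). Without slr1- replicate 1 4 of the 18 fell and the median was -0.30, without slr1- replicate 2 14 fell, and with RP-free scaling 4 fell and 1 rose.

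All 5 genes of La, LSm and mRNA decay proteins fell (median -0.85), and 3 of the 5 fell with RP-free scaling (median -0.52). The decapping activator gene lsm1 fell from 263 and 335 to 129 and 175 (-0.98 ± 0.21), and the helicase gene ste13, the Dhh1 homolog, from 271 and 299 to 134 and 183 (-0.85 ± 0.17). Both kept their calls in all other settings, while 2 of the 5 genes of the class passed without slr1- replicate 1, and 3 without slr1- replicate 2 or WT replicate 2. Of 13 genes of mRNA transcription, processing and export 7 fell (53.8%) and none rose (median -0.46). Among them was sfp1, for a transcription factor, which went from 324 and 341 to 155 and 202 (-0.90 ± 0.16). The count was 3 of 13 without slr1- replicate 1 and 4 without WT replicate 1, and with RP-free scaling 3 fell and 2 rose.

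Genes of glycolysis and fermentation were higher where they changed, with 1 exception. Of 18 genes 8 rose (44.4%) and 1 fell (median 0.16, -0.023 with library sizes alone). The rises numbered 5 without slr1- replicate 1, without slr1- replicate 2 or without WT replicate 2, and with library sizes alone 4 rose and 2 fell. With pgk1 rose the alcohol dehydrogenase gene adh1, from 5779 and 4657 to 9245 and 8478 (0.76 ± 0.12), and the glyceraldehyde-3-phosphate dehydrogenase gene tdh1, from 5215 and 4779 to 7600 and 7462 (0.59 ± 0.11). All 3 kept their calls in all other settings. The lowered gene was rpe1 of the pentose phosphate pathway (-0.41 ± 0.15), lost without slr1- replicate 1 (-0.27) or WT replicate 2 (-0.33). The median was 0.31 without WT replicate 1. Of 10 redox and core stress genes 2 rose and 1 fell, with a median of 0.13 that turned to -0.053 with library sizes alone. Besides pmp20 these were the peroxiredoxin gene tpx1 (0.28 ± 0.10), lost without either slr1- library (0.26 and 0.31) or WT replicate 2 (0.20), and the glutathione reductase gene pgr1, which fell (-0.71 ± 0.16).

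Of 33 nuclear genes of respiration, the TCA cycle and mitochondrial carriers 13 fell and none rose (median -0.33). The share lowered, 39.4%, was no higher than that of the 401 genes. With RP-free scaling 4 rose and 3 fell and the median turned to 0.017. It was -0.14 without WT replicate 2, and 3 fell without slr1- replicate 1. The cytochrome oxidase gene cox13 fell from 423 and 599 to 273 and 279 (-0.89 ± 0.18). Of 10 listed transcripts with the mitochondrial prefix SPMIT, which the reference used here does not name, 5 fell and 1 rose (median -0.52). With RP-free scaling 1 fell and 2 rose. SPMIT.03 had 307 and 392 counts in WT and 113 and 164 in slr1- (-1.34 ± 0.28), and SPMIT.10, the one that rose, 6961 and 7247 in WT and 10920 and 9613 in slr1- (0.53 ± 0.10). SPMIT.08 had 627 and 1245 in WT and 425 and 394 in slr1- (-1.19 ± 0.32). SPMIT.03 was no longer called without slr1- replicate 1 (-1.09), when SPMIT.10 was the 1 transcript of the class that passed. The call of SPMIT.08 was lost without either slr1- library (-1.25 and -1.14) and without WT replicate 2 (-0.61). The class median was -0.33 without WT replicate 2, when 2 fell, and 3 fell without slr1- replicate 2.

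Genes of the cell surface and of lipid supply were mostly lower where they changed. Of 11 genes of proton pumps and plasma membrane transport 8 fell (72.7%) and none rose (median -0.76), with 2 of them past the test without slr1- replicate 1. The phosphate transporter gene pho84 had 1027 and 650 counts in WT and 327 and 489 in slr1- (-1.04 ± 0.25), and lost its call in that way (-0.78). Of 15 cell wall and glycosylation genes 9 fell and none rose (median -0.56), and 3 fell without slr1- replicate 1 and 5 without WT replicate 2. RP-free scaling left 5 falls among the 11 transport genes and 3 among the 15 cell wall genes, and none rose in either class. With exg1, the cell surface protein gene ecm33 fell from 1245 and 1257 to 578 and 783 (-0.88 ± 0.14). Of 21 genes of sterol, lipid and fatty acid synthesis 11 fell (52.4%) and 1 rose (median -0.50, -0.27 without slr1- replicate 1, when 5 fell). With RP-free scaling 5 of the 21 fell and 2 rose (median -0.18). The HMG-CoA synthase gene hcs1, of the sterol pathway, fell from 498 and 371 to 206 and 237 (-0.97 ± 0.17). Of 13 genes of the secretory pathway 6 fell (46.2%, near the share of the 401 genes) and 1 rose, with a median of -0.30. With RP-free scaling 3 rose and 2 fell and the median turned to 0.029. The falls numbered 2 without slr1- replicate 1 and 3 without WT replicate 2. The Rab GTPase gene ypt3 (-1.05 ± 0.17) and the coatomer gene ret3 (-0.93 ± 0.17) kept their calls in all other settings.

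Protein folding and turnover genes changed in both directions. Of 31 chaperone and folding genes 16 fell (51.6%) and 4 rose (median -0.42). Subunits of the cytosolic chaperonin, which folds actin and tubulin, were among the lowered ones, with cct4 going from 271 and 271 to 116 and 156 (-0.99 ± 0.17), cct5 lower by a log2 fold change of -0.86 ± 0.16 and cct7 by -0.81 ± 0.15. The cyclophilin gene ppi1 rose from 4184 and 3466 to 7003 and 6040 (0.77 ± 0.12). Without slr1- replicate 1 7 fell and 1 rose, with a median of -0.25, without WT replicate 1 10 fell and 1 rose, and with RP-free scaling 6 fell and 5 rose. Of 11 genes of the proteasome, ubiquitin and proteolysis 6 fell (54.5%) and none rose (median -0.66). With RP-free scaling 4 fell and 2 rose (median -0.33). The proteasome gene dss1 fell from 575 and 690 to 299 and 351 (-0.96 ± 0.15), and 3 of the class fell without slr1- replicate 1.

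Biosynthetic genes changed in both directions, with a balance that turned with the scaling. Of 38 amino acid synthesis genes 10 fell (26.3%, under the share of the 401 genes) and 2 rose, and with RP-free scaling 5 fell and 10 rose. The falls numbered 6 without WT replicate 1, and 0 rose without WT replicate 2 or either slr1- library. Their median of -0.085 turned to 0.24 with RP-free scaling and to 0.0074 without slr1- replicate 1. Besides ser1 the proline gene pro3 fell (-0.89 ± 0.18). The branched-chain genes leu1 (0.39 ± 0.15) and ilv5 (0.33 ± 0.12) rose, and both calls were lost without slr1- replicate 1 (0.49 and 0.37), slr1- replicate 2 (0.28 and 0.29) or WT replicate 2 (0.24 and 0.23). Of 20 genes of purine, pyrimidine and one-carbon synthesis 8 fell (a share near that of the 401 genes) and 2 rose (median -0.34, -0.0062 with RP-free scaling). With RP-free scaling 2 fell and 3 rose, without slr1- replicate 1 2 fell and 1 rose, and without WT replicate 1 5 fell. Of 15 genes of the cytoskeleton, septation and cell cycle 5 fell (33.3%, under the share of the 401 genes) and 2 rose, with a median of -0.27. With RP-free scaling 1 fell and 5 rose and the median turned to 0.064. The falls numbered 3 without slr1- replicate 1 or WT replicate 2. The actin gene act1 had 3481 and 3313 counts in WT and 3930 and 4607 in slr1- (0.33 ± 0.11), and its call was lost without slr1- replicate 2 (0.21) or WT replicate 2 (0.29). No class was assigned to 54 listed genes, of which 21 fell and 2 rose (median -0.33), with 7 falls without slr1- replicate 1 and 12 without WT replicate 2. With RP-free scaling 6 of these 54 fell and 7 rose, with a median of -0.0016. Histones (3), nuclear pore and transport (3), signalling (2) and mitochondrial translation (1) had too few listed genes to describe.

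**Figure D4:**
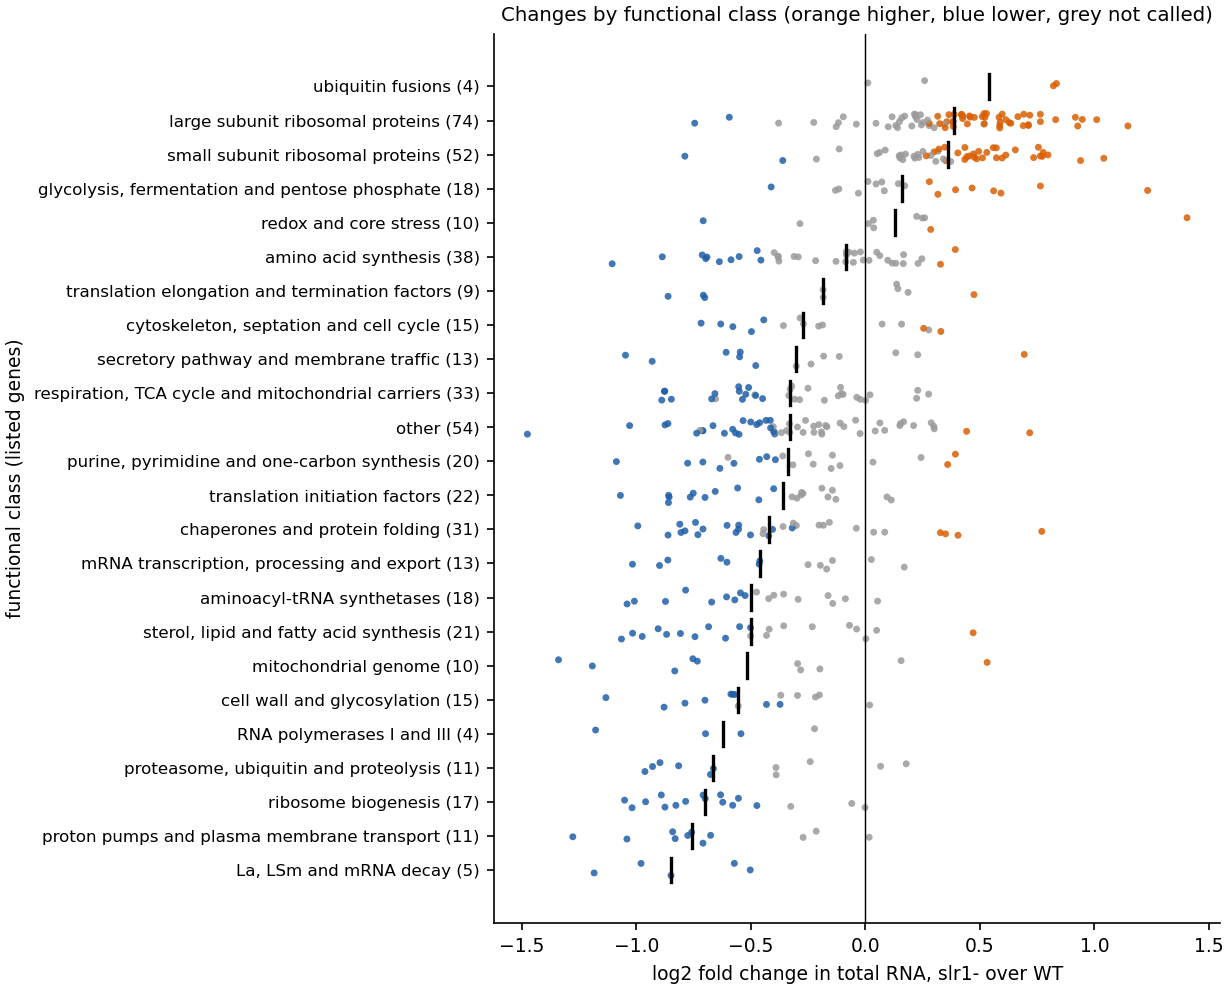
Log2 fold change of total RNA in slr1- over WT for each listed gene, in 24 functional classes of at least 4 genes (number listed in brackets). Orange points passed as higher, blue as lower and grey did not pass, and black bars are class medians, which lie above 0 for ubiquitin fusions, both ribosomal subunits, glycolysis and redox genes and below 0 for the other classes with the TMM factors from all listed genes.

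Over all listed genes, and among those other than RP genes, the direction of change went with the level of the mRNA. Genes were ranked by their count in WT replicate 1 and put into 4 bins of equal size. Among the genes with the lowest counts (256 to 365 counts, 132 genes) 85 fell and 3 rose, with a median log2 fold change of -0.57. In the top bin (1408 to 18130 counts) 67 rose and 8 fell (median 0.28). Ranked without RP genes, the lowest bin had 67 falls and 1 rise (median -0.58). The top bin then had 18 falls and 19 rises (median -0.041). RP genes ranked alone showed no such trend, with medians of 0.50, 0.37, 0.35 and 0.40 from the lowest bin to the top.

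The count table itself has an edge on the low side in 1 library. The lowest count in WT replicate 1 was 256, and 41 genes lay within 1.1 times that value, against 1 to 3 genes so near the lowest count (111 to 177) in the other 3 total RNA libraries. The rule by which genes entered the table is not stated. With WT replicate 1 left out of the fit, the lowest and top bins of all genes had medians of -0.56 and 0.33. The rows stayed the same and the bins were still ranked by that library, so this fit cannot show what the edge does to the trend. Genes with fewer than 256 counts in WT replicate 1 are not among the rows. Between replicates of slr1- the lowest bin of all genes had a median log2 ratio of replicate 1 to 2 of -0.31, and the top bin of 0.082. Between the replicates of WT the medians of replicate 2 over 1 were 0.018 and -0.077. A trend with level thus also ran between both slr1- libraries, and its part in the comparison of the strains was not tested.

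At matched level RP genes still had the higher medians. Between 500 and 1000 normalised counts 11 of 17 RP genes rose and 1 fell (median 0.52), and 7 of 99 other genes rose and 29 fell (median -0.22). From 1000 to 2000 counts the medians were 0.32 (29 RP genes) and 0.039 (32 others), and from 2000 to 4000 counts 0.36 (36) and -0.0015 (17). Above 4000 counts 27 of 36 RP genes rose and 1 fell (median 0.43), and 11 of 26 others rose and 3 fell (median 0.18). Below 500 counts 136 of 227 other genes fell and 2 rose (median -0.55), and the 8 RP genes there had a median of 0.21. The table starts at 256 counts in WT replicate 1 but goes down to 111 and 142 in the slr1- libraries. A gene of low mean level could thus be listed more easily when lower in slr1- than when higher, which by construction favours falls below 500 counts. These bounds were chosen after the values had been seen.

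**Figure D5:**
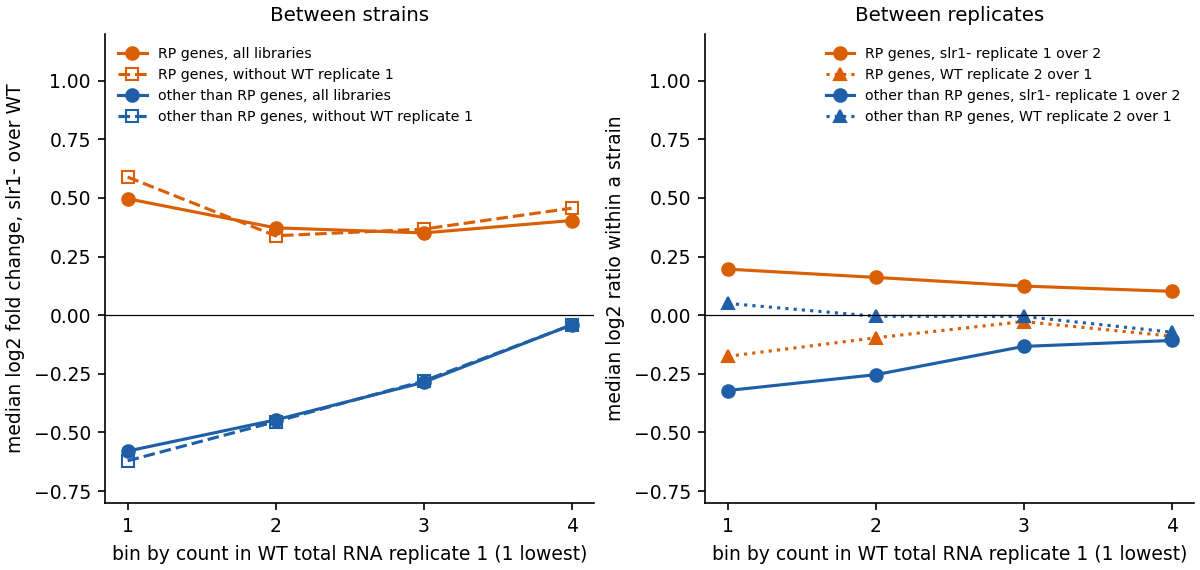
Left, median log2 fold change of slr1- over WT in 4 bins of genes by their count in WT replicate 1, for RP genes (orange) and other genes (blue), with all libraries (solid) and without WT replicate 1 (dashed). Right, medians of the log2 ratio between replicates of 1 strain in the same bins, in which the other genes of low count lie below 0 between the slr1- replicates (-0.32 in the lowest bin).

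Transcript length moved with the change as well. With the 515 genes that have an annotated length in 4 bins of equal size, from the shortest to the longest, median log2 fold changes were 0.28, 0.013, -0.27 and -0.50. Without RP genes, which are short, they were -0.14, -0.23, -0.39 and -0.48. In these bins without RP genes the median log2 ratio of replicate 1 to replicate 2 ran from -0.023 to -0.39 in slr1- and from -0.24 to 0.19 in WT. Length trends between replicates were thus about as wide as the one between strains, and their part in it was not tested.

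In polysome RNA of the same strains the changes had mostly the same sign and were smaller. Of the 104 genes raised in total RNA 95 had a positive log2 fold change in polysome RNA (median 0.24), and of the 177 lowered genes 148 had a negative one (median -0.16). These genes were picked by passing in total RNA, which by construction favours larger values there. Over all 126 RP genes, called or not, the medians were 0.38 in total and 0.27 in polysome RNA. Over the other 401 genes they were -0.36 and -0.087. The difference of the strain effect between polysome and total RNA passed the edgeR test of the interaction in 2 genes (0.38%), and 140 (26.6%) had an unadjusted p under 0.05. The 2 that passed were SPMIT.10, with a log2 fold change of 0.53 in total and -0.48 in polysome RNA, and the Hsp90 co-chaperone gene aha1, with -0.55 and 0.61. SPMIT.10 had 6961 to 10920 normalised counts in total RNA and only 256 to 358 in polysome RNA. What its low polysome counts stand for was not tested. The count of 2 moved widely between settings. In edgeR it was 77 without slr1- replicate 2 of total RNA, 32 without WT replicate 1 and 5 without WT replicate 2. It was 0 without slr1- replicate 1, with 100 genes at an unadjusted p under 0.05, and DESeq2 with all libraries gave 37. The gene aha1 falls outside the rule for named genes and was chosen after its values were seen.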

How the data were processed

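Total RNA was compared between 2 slr1- and 2 WT libraries. The deposited table holds counts, whole numbers per gene and library made by the authors. Per the submitters' processing notes the tools were Bowtie and RSEM. Not given in the sources used here are versions, options, genome build, annotation and the rule that selected the 527 listed genes. The change type of the table is "both" for 250 genes and "translational_only" for 277. No per-sample column was left out (0 unused).

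The quasi-likelihood test of edgeR 4.0.16 (R 4.3.3) was applied to the counts, two-sided, with TMM factors and 1 mean per group over all 8 libraries, giving 4 residual degrees of freedom and a biological coefficient of variation of 0.113. No gene was filtered, since the lowest mean over the total RNA libraries was 188 counts. The Benjamini-Hochberg adjustment covered all 527 genes, with a threshold of 0.05. The SE was obtained from the size of the log2 fold change and F, as their quotient after taking the root of F. Normalised counts are counts divided by the TMM-scaled library size, on a common scale. The procedure was tested on simulated data.

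Names, products and lengths came from RefSeq ASM294v3, which matched 515 of 527 identifiers; unmatched ones keep their identifier. Classes were assigned from names and products, each gene to 1 class, and misplaced genes were reassigned from their annotation. The rule named 106 genes: the 12 largest rises and falls that passed without overlap, up to 3 genes per direction in each class, copies of RP genes called in opposite ways or differing most, and the 5 highest per kb. A selection of them is described, and 1 result is not reported here. Members, lists and alternatives were chosen with earlier results of these data known.

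Alternatives were DESeq2 1.42.0, its size factors in edgeR, TMM factors without RP genes, library sizes alone, genes of at least 500 counts, total RNA libraries only, a replicate block, leaving out each library and, added after seeing the data, a crossed pairing.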

Additional observations from a re-analysis of the deposited data

Results flagged for a closer look

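In 2 genes the strain effect differed between polysome and total RNA by the interaction test in edgeR. For SPMIT.10 the log2 fold change was lower by -1.01 ± 0.15 (SE) in polysome RNA than in total RNA (adjusted p = 0.022). Its libraries held only 256 to 358 normalised counts in polysome RNA, against 6961 to 10920 in total RNA. For aha1 the log2 fold change was higher by 1.17 ± 0.20 (adjusted p = 0.035). Without replicate 1 of slr1- total RNA both had an adjusted p of 0.184.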

How the results depend on the processing

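The count of 281 genes became 126 (52 higher, 74 lower) when 305 genes of at least 500 counts were tested, fewer genes by construction. Leaving out 1 library gave 127 to 288 genes, 51 to 96 higher and 76 to 192 lower. TMM factors without RP genes gave 182 higher and 72 lower, and library sizes alone 60 higher. Genes past the test with at least 2-fold change (25) numbered 56 with library sizes alone, 16 with DESeq2 and with total RNA libraries only, 10 with genes of at least 500 counts and 9 to 61 with 1 library left out. With the replicate number as a block in the total RNA libraries 98 genes fell and 15 changed at least 2-fold, and a block over all 8 libraries gave 9 interaction genes. The deviations of same-numbered libraries correlated at -0.14 between the strains in total RNA, so the numbers are not shown to pair the strains. Between total and polysome RNA they correlated at 0.29 in WT and 0.070 in slr1-, and the main interaction fit took these libraries as independent. The crossed pairing, chosen after seeing this, gave 256 genes (112 higher, 144 lower), 15 of them at least 2-fold. The interaction count of 2 was 37 with DESeq2 and 0 to 77 with 1 total RNA library left out in edgeR. The 0, without replicate 1 of slr1-, stood beside 100 genes at an unadjusted p under 0.05.

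Medians that changed sign were those of all genes (0.15), amino acid synthesis (0.24), cytoskeleton (0.064), respiration (0.017), secretory pathway (0.029) and elongation and termination (0.16) with TMM factors without RP genes. Those of glycolysis (-0.023) and redox genes (-0.053) did so with library sizes alone, and those of cytoskeleton (0.071) and secretory genes (0.044) with genes of at least 500 counts. The amino acid median was 0.037 with total RNA libraries only, 0.038 with the replicate block in them, and -0.28 to 0.0074 with 1 library left out. The rpl2102 value was -0.083 with library sizes alone and -0.084 with genes of at least 500 counts. That of rps3001 was 0.23 with TMM factors without RP genes, 0.017 with total RNA libraries only and 0.0085 with the replicate block in them. Apart from the smaller gene set, the cause was not tested. Of 102 named genes that passed, 54 kept their call in each of the 12 settings that tested them. No change under 0.25 on the log2 scale passed with 2 libraries a group.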
